A study of Mus musculus with 6 samples.

Results

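The 10 genes described here encode the machinery of excitation-contraction coupling and calcium handling: Cacna1s, Ryr1, Ryr3, Jph2, Trdn, Casq2, Atp2a1, Atp2a2, Stim1 and Itpr1. They were chosen by name, and their data are the peaks of 5 RISC-IP libraries that overlapped an exon of one of them by at least 1 bp. Peaks of different libraries that overlapped or touched were joined into 1 interval, which gave 42 intervals over these genes out of 38946 exonic intervals in the series. Of the 10 genes, 8 had at least 1 exonic interval, and Ryr3 and Itpr1 had none.

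In skeletal muscle, the dihydropyridine receptor of the transverse tubule senses the action potential and opens the ryanodine receptor of the sarcoplasmic reticulum, a release channel that lies opposite to it. Junctophilins and triadin hold this junction together, calsequestrin stores calcium inside the reticulum, and the SERCA pumps return it there. STIM1 senses an emptied store and opens a calcium entry channel of the plasma membrane, and the inositol trisphosphate receptor is the other release channel of the reticulum.

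The RNA was bound to Ago2, the protein of the RNA-induced silencing complex (RISC) that holds the miRNA, and was immunoprecipitated from myocytes made from primary mouse satellite cells (MSC), the muscle progenitors. After 30 h in differentiation medium (DM) the cells received miR-222 duplex RNA (miR-222-IP, 2 libraries) or siGFP duplex RNA as control (control-IP, 4 libraries), at 10 nM by the sample labels, whereas the methods of the study give a higher concentration, and were lysed 16 h later. Libraries are named by group and replicate number. Experiment 1 held control-IP 1, control-IP 2 and miR-222-IP 1, and experiment 2 held control-IP 3, control-IP 4 and miR-222-IP 2, so that within an experiment the miR-222-IP had no replicate. Strain, sex and age of the mice are not given in the sources used here. These were bulk cultures, in which fewer cells of a type and less RNA per cell cannot be told apart.

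For every peak the data hold its position and its score, the −log10 p of the peak caller, with scores over 20. Both enrichment and library depth raise the score, the depth is unknown, and a ratio of scores cannot be read as a fold of reads. The 5 libraries with narrow peaks listed between 10579 peaks, in control-IP 1, and 37762 peaks, in miR-222-IP 2. The peaks of control-IP 3 had a median width of 32103 bp and lay on 10 of 21 chromosomes, and this library was kept apart. All 10 markers of skeletal myocytes (such as Myog, Myod1, Ckm and Acta1) had a peak in at least 1 of the 5 libraries, and 8 of them in all 5. The exceptions were Myog, called in miR-222-IP 2 alone, and Ckm, called in control-IP 2 and both miR-222-IPs. Neither satellite cell marker (Pax7, Myf5) and none of the 3 cardiac markers (Myh6, Nppa, Ryr2) had a peak. The leukocyte marker Adgre1 had a peak in all 5 libraries with a highest score between 196 and 236, Ptprc had one in 4 of them, and of the endothelial markers Pecam1 had one in all 5 and Cdh5 had one in control-IP 2, with a score of 25.2. Of the fibroblast markers Pdgfra, Col1a1 and Dcn, Pdgfra had 1 peak, with a score of 20.1 in control-IP 4.

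The genes with a peak differed in the libraries that called them. Casq2, Atp2a2 and Stim1 had a peak in all 5 libraries, as did 41% of the protein-coding genes with an exonic interval. Cacna1s, Ryr1, Jph2 and Trdn had peaks in miR-222-IP 2 and in none of the other 4, a pattern held by 13.9% of those genes. Atp2a1 had 1 interval in miR-222-IP 2 and another in control-IP 2. The number of the 10 genes with a peak was 3, 4 and 3 in control-IP 1, 2 and 4, 3 in miR-222-IP 1 and 8 in miR-222-IP 2. Of the 10289 protein-coding genes with an exonic interval, 46.0%, 74.6%, 64.1%, 71.1% and 95.4% had a peak in these libraries in the same order. The fourth gene of control-IP 2 is Atp2a1, through an interval that shared 45 bp with it and could not be assigned.

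**Figure D1:**
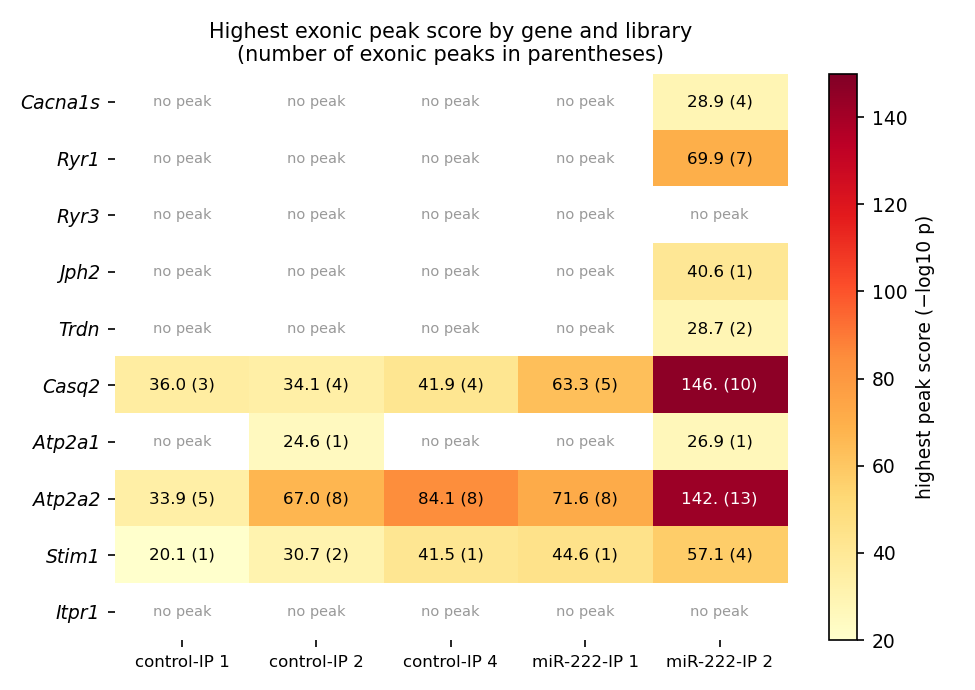
Highest exonic peak score (−log10 p, colour) of each gene (rows) in each of the 5 narrow-peak libraries (columns), with the number of exonic peaks in parentheses. Casq2, Atp2a2 and Stim1 have values in all 5 columns, Ryr3 and Itpr1 in none, and the highest value of each of the 8 genes with a peak is in miR-222-IP 2.

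Counted by interval, 8 of the 42 (19.0%) had a peak in all 5 libraries, beside 19.8% of all exonic intervals. In miR-222-IP 2 alone a peak was called in 26 of the 42 (61.9%), beside 30.9% of all exonic intervals. No interval of these genes had peaks in both miR-222-IPs and in none of the 3 control-IPs, beside 6.54% over all. A count of 0 among 42 allows a share of up to 7.14%, so it could not be told from the share over all. The share of the 42 intervals with a peak was 21.4%, 33.3% and 31.0% in control-IP 1, 2 and 4 and 33.3% in miR-222-IP 1, each below the share over all exonic intervals (25.4%, 47.0%, 43.8% and 51.8%). In miR-222-IP 2 it was 97.6%, against 92.3% over all. Where miR-222-IP 2 stood alone, its score had a median of 30.9 (20.5 to 69.9) over the 26 intervals and 27.2 over all such exonic intervals.

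**Figure D2:**
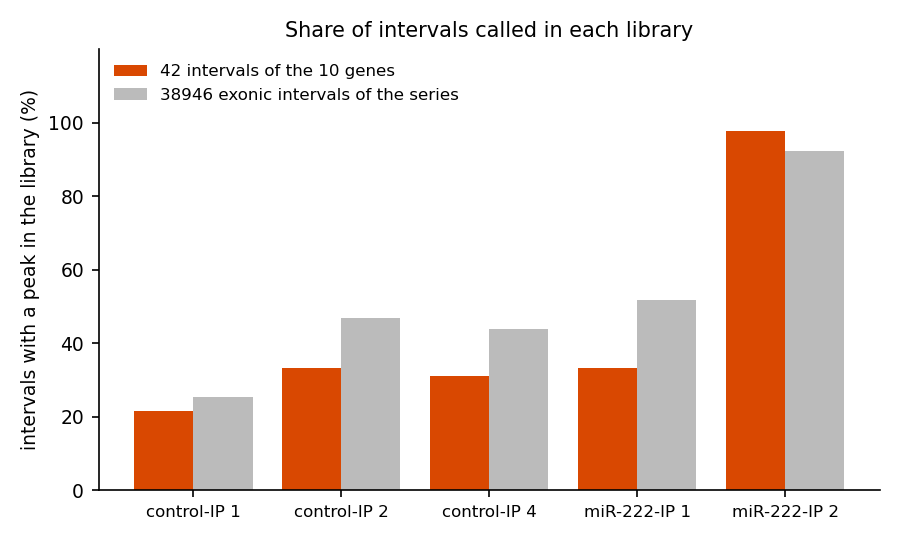
Percent of the 42 intervals of the 10 genes (orange) and of all 38946 exonic intervals (grey) with a peak in each narrow-peak library. The orange bar is lower than the grey one in 4 libraries, and in miR-222-IP 2 it reaches 97.6% against 92.3%.

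Since miR-222-IP 2 had the longest list, the counts were also taken with equal numbers of peaks. With the 10579 highest peaks of each library, as many as the shortest list has, 15 intervals of 4 genes were kept: 7 of Atp2a2, 6 of Casq2, 1 of Ryr1 and 1 of Stim1. A peak in miR-222-IP 2 alone was then found in 4 of the 15 (26.7%), 3 in Casq2 and 1 in Ryr1, beside 5.78% of all exonic intervals, and a peak in all 5 libraries in 2 of the 15 (13.3%), beside 28.7%. Of the 42 intervals, 16 (38.1%) had a peak in a library other than miR-222-IP 2, beside 69.1% of all exonic intervals.

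By transcript part, 33 of the 42 intervals (78.6%) lay over coding sequence without reaching a UTR, beside 61.9% of the intervals over protein-coding genes. Coding sequence and 3′UTR were both covered by 5 intervals (11.9%, beside 18.0%), 3′UTR without coding sequence by 2 (4.76%, beside 11.0%), and 5′UTR with coding sequence by 2 (4.76%, beside 6.79%). Of the 33 coding intervals, 23 were called in miR-222-IP 2 alone, a share that was 37.4% over all coding intervals. The median interval had 160 bp in exons (49.0% of its width), against 253 bp (69.6%) over all exonic intervals.

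**Figure D3:**
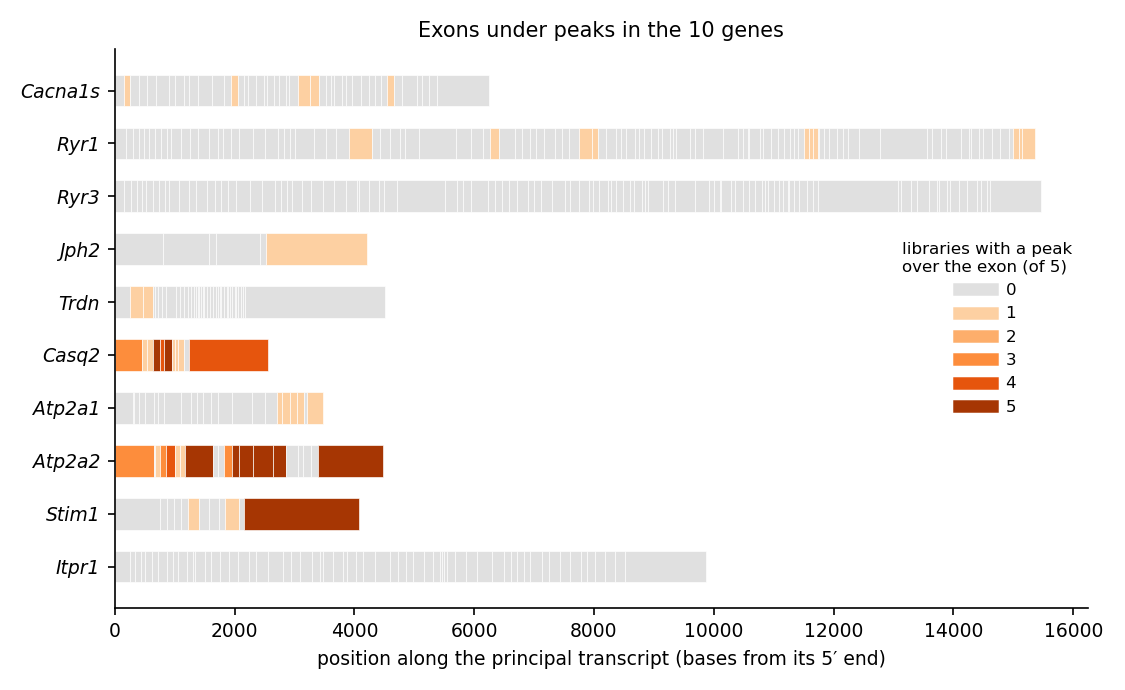
Exons along the principal transcript of each gene (bases from the 5′ end), coloured by the number of narrow-peak libraries, of 5, with a peak over the exon. Casq2 and Atp2a2 are coloured over most of their length, Stim1 at its last exon in all 5 libraries, and the long transcripts of Cacna1s and Ryr1 at scattered exons in 1 library.

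A miRNA guides Ago2 by pairing its seed, bases 2 to 8, with the RNA. The mature sequences, taken from RefSeq (GRCm38.p6) and printed with the seed in capitals, are those of miR-222, its family member miR-221, and the miRNAs whose matches lay under peaks of these genes. miR-206 and miR-133b are muscle miRNAs, and miR-25 and miR-92a share their seed, as miR-222 and miR-221 do.
mmu-miR-222-3p: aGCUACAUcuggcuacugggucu
mmu-miR-221-3p: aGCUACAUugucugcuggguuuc
mmu-miR-206-3p: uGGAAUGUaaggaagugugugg
mmu-miR-133b-3p: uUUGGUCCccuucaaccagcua
mmu-let-7a-5p: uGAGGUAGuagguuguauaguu
mmu-miR-24-3p: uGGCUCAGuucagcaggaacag
mmu-miR-25-3p: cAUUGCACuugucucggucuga
mmu-miR-92a-3p: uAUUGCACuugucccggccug

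The match searched for each family was the reverse complement of the seed on the strand of the gene: ATGTAGC for miR-222 and miR-221, ACATTCC for miR-206, GGACCAA for miR-133, CTACCTC for let-7, CTGAGCC for miR-24 and GTGCAAT for miR-25 and miR-92a. No match to the miR-222 seed lay in the exonic part of the 42 intervals, and 1.95% of all exonic intervals held one. A count of 0 among 42 allows a share of up to 7.14%, so a share like that of all intervals could not have been told from 0. The exons of the 10 genes held 7 miR-222 matches, all outside the intervals: 2 each in Ryr1, Ryr3 and Itpr1 and 1 in Stim1. Of these, 3 were coding, in exon 42 of Ryr1, exon 11 of Ryr3 and exon 47 of Itpr1, and the others lay in exons outside coding transcripts. Along the genome, introns included, the Stim1 match was 6 bp from an interval called in miR-222-IP 2 alone, and the coding Ryr1 match was 3461 bp from the nearest one, that over exon 38. In the spliced principal transcript of Ryr1 they are closer, as exon 38 starts at base 6267 and exon 42 at base 6936. The 3 coding matches and the Stim1 match, the closest to an interval, are printed as 30-base windows of the genome (mm10) on the strand of the gene, with the match in capitals, since they show where miR-222 could pair with these transcripts.
Ryr1 exon 42, chr7:29076223-29076252: ccacacccttggATGTAGCtgctgcttctg
Ryr3 exon 11, chr2:112926862-112926891: gctttgttcagcATGTAGCcagtggccttt
Itpr1 exon 47, chr6:108481342-108481371: aaatgaaaagaATGTAGCacttatcaacca
Stim1 exon outside coding transcripts, chr7:102427418-102427447: aactaggaaagATGTAGCtccttcattggt

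For the other miRNAs, let-7 matches lay in 3 of the 42 intervals (7.14%, beside 3.12% of all exonic intervals), miR-24 matches in 2 (4.76%, beside 5.75%), miR-25 and miR-92a matches in 2 (4.76%, beside 1.66%), and miR-206 and miR-133 matches in 1 each (2.38%, beside 2.89% and 2.96%). With 42 intervals, each of these counts is too small to tell a share from that over all. Atp2a2 held a let-7 match in its 3′UTR and another in exon 15, both under intervals with a peak in all 5 libraries. It also held a miR-25 and miR-92a match in the 3′UTR of its shorter coding transcript, under a peak of miR-222-IP 2. The third let-7 match lay in exon 48 of Ryr1 and the other miR-25 and miR-92a match in the coding sequence of Atp2a1, each under a peak of miR-222-IP 2. Jph2 held a miR-24 match in its 3′UTR, Casq2 a miR-133 and a miR-24 match in its 5′UTR, and Cacna1s a miR-206 match in exon 38. These 9 matches are shown in the same way, since each lay under a peak of a gene described next. A match of letters is a description and not evidence that the miRNA was bound there.
Atp2a2 3′UTR, let-7, chr5:122456645-122456674: agcagagtcctgCTACCTCagtcagtattt
Atp2a2 exon 15, let-7, chr5:122459994-122460023: gcagttcatccgCTACCTCatctcatccaa
Atp2a2 3′UTR of the shorter coding transcript, miR-25 and miR-92a, chr5:122453678-122453707: agacagatgttgGTGCAATacaagtattgt
Jph2 3′UTR, miR-24, chr2:163337203-163337232: ttttgagtgtgtCTGAGCCtgaggctggag
Casq2 5′UTR, miR-133, chr3:102086515-102086544: acacagctgcaGGACCAAggaggtgaaagc
Casq2 5′UTR, miR-24, chr3:102086490-102086519: cacagtttgttCTGAGCCcacgactacaca
Ryr1 exon 48, let-7, chr7:29071918-29071947: ggcactgaaccgCTACCTCtgtctggctgt
Atp2a1 coding, miR-25 and miR-92a, chr7:126447383-126447412: gaccatcgagatGTGCAATgctctcaacag
Cacna1s exon 38, miR-206, chr1:136113304-136113333: aattctatgccACATTCCtcatccaggagc

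Cacna1s encodes the pore and voltage sensor of the dihydropyridine receptor. It had 4 intervals, over exon 2, exon 14, exons 25 and 26, and exon 38 of 44, and all were coding. The scores in miR-222-IP 2 were 27.4, 24.0, 21.4 and 28.9, and the other 4 libraries had no peak. The intervals covered 10.7% of its exon bases.

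Ryr1, the release channel of skeletal muscle, had 7 intervals over 10 of its 106 exons, which covered 7.05% of its exon bases. All 7 were called in miR-222-IP 2 alone. From the 5′ to the 3′ end their scores were 51.6 (exon 28), 20.5 (exon 38), 37.4 (exons 48 and 49), 69.9 (exons 80 and 81), 36.4 (exon 82), 22.2 (exon 104) and 29.8 (exons 105 and 106). The last one reached 103 bp of the 3′UTR, and the other 6 were coding. The intervals over exon 38 and exons 48 and 49 also overlapped Gm26604, and that over exon 82 overlapped Gm44408, both on the opposite strand. Whether the libraries kept the strand is not stated, so reads of Ryr1 and of these genes cannot be told apart there.

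Ryr3, the ryanodine receptor expressed at lower levels in muscle, had no exonic interval over its 104 exons. Within its introns 2 intervals had a peak in all 5 libraries. The first (chr2:112714355-112714687, 1814 bp from the nearest exon) had scores of 24.7, 54.4 and 32.1 in control-IP 1, 2 and 4 and of 56.1 and 67.3 in miR-222-IP 1 and 2. The second (chr2:112808859-112809125, 4004 bp from an exon) had scores of 38.3, 36.3, 35.4, 59.8 and 115 in the same order. Of the 50-base stretches of the first, 25.4% were also found in transcripts of Hsp90ab1, and of the second, 76.6% in transcripts of Yipf5. Reads of Ryr3 and of those genes could not be told apart there, and these intervals were not counted among the 42.

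Jph2 encodes a junctophilin, which ties the reticulum to the transverse tubule. Its 1 interval lay in the 3′UTR of its last exon, covered 1001 bp of it, and had a score of 40.6 in miR-222-IP 2. The other 4 libraries had no peak. Casq1 and Jph1, which belong to the list of other pathway genes given further on, were likewise called in miR-222-IP 2 alone, with highest scores of 46.3 and 63.0.

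Trdn encodes triadin, which links calsequestrin to the ryanodine receptor. In the 5 narrow-peak libraries it had 2 intervals, over exons 2 and 3 of 38, with scores of 28.7 and 24.7 in miR-222-IP 2. Control-IP 3, from the same experiment, had peaks at these places with scores of 104 (427 bp wide, exon 2) and 100.05 (1492 bp wide, exons 3 and 4). It had 3 more over Trdn: 66.5 over exon 1 (583 bp), 34.0 over exons 5 to 10 (58384 bp) and 21.3 over exons 11 and 12 (1184 bp). A call of Trdn in miR-222-IP 2 alone therefore held only among the 5 narrow-peak libraries. The list of control-IP 3 covered the chromosomes of 2 of the 10 genes, Trdn and Cacna1s. Over Cacna1s it had 1 peak of 125074 bp with a score of 85.0, which spanned all 44 exons and 1 other coding gene. With this library added, 20 intervals in place of 26 had a peak in miR-222-IP 2 alone (47.6% of 42, beside 26.7% of all exonic intervals). These 42 are not the same set, since the wide peak joined the intervals over Cacna1s and control-IP 3 added others over Trdn.

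Casq2 encodes calsequestrin 2, the isoform of cardiac and slow muscle, which developing skeletal muscle also expresses. Its 10 intervals covered 89.1% of its exon bases, against a median of 28.7% over protein-coding genes with an interval, and lay over every exon but exon 10 of 11. Per kb of exon it had 3.65 intervals, the most of the 10 genes. The highest score was 36.0, 34.1 and 41.9 in control-IP 1, 2 and 4, 63.3 in miR-222-IP 1 and 146 in miR-222-IP 2. Among the protein-coding genes with a peak in a library, these values stood at percentiles 44.6, 29.8, 46.4, 65.3 and 89.8. The control-IPs had 3 to 4 peaks over Casq2, miR-222-IP 1 had 5 and miR-222-IP 2 had 10.

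The interval over exon 6 of Casq2 (chr3:102126427-102126803) had scores of 36.0, 25.0 and 41.9 in control-IP 1, 2 and 4 and of 63.3 and 146 in miR-222-IP 1 and 2. After scaling of the libraries, each miR-222-IP was above the control-IPs of its experiment. The interval over exon 4 (chr3:102116748-102117098) had scores of 27.7, 23.1, 20.8, 33.9 and 101 in the same order. There miR-222-IP 2 was above its control-IP, whereas miR-222-IP 1 was, once scaled, below control-IP 1. Over exon 1 the scores were 34.1 in control-IP 2, 26.6 in miR-222-IP 1 and 140 in miR-222-IP 2, and over exon 11, with the 3′UTR, they were 20.3, 21.6, 30.3 and 128 in control-IP 2 and 4 and miR-222-IP 1 and 2. Exon 5 had 21.6 and 22.7 in control-IP 1 and 4, 29.5 in miR-222-IP 1 and 67.1 in miR-222-IP 2. Exons 2, 3, 7, 8 and 9 were called in miR-222-IP 2 alone, with scores of 60.8, 57.8, 33.3, 65.7 and 22.2.

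Atp2a1 encodes SERCA1, the pump of fast muscle. It had 1 coding interval over exons 18 to 21 of 23, with a score of 26.9 in miR-222-IP 2 and no peak in the other 4 libraries. No peak lay over exon 22, the 42-base exon whose inclusion separates the adult from the neonatal form. The other interval, with a score of 24.6 in control-IP 2, shared 45 bp with the last exon of Atp2a1 and lay mostly over Rabep2 on the opposite strand, so its source could not be assigned.

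Atp2a2 encodes SERCA2, the pump of slow and cardiac muscle and, as its longer form, of most other cells. Its 13 intervals, the most of the 10 genes, covered 67.6% of its exon bases and 13 of the 20 exons of its principal transcript. Its highest score was 33.9, 67.0 and 84.1 in control-IP 1, 2 and 4 and 71.6 and 142 in miR-222-IP 1 and 2. The libraries had 5, 8, 8, 8 and 13 peaks over it in that order.

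Of these intervals, 5 had a peak in all 5 libraries, and their values are given in the order control-IP 1, 2 and 4, then miR-222-IP 1 and 2. Over exon 8 (chr5:122469262-122469905) the scores were 31.2, 25.0, 69.4, 71.6 and 142. The interval over exons 12 and 13 had 20.8, 20.7, 21.8, 28.5 and 44.4, and that over exon 14 had 33.8, 54.3, 41.6, 53.4 and 77.8. At exon 15 they were 25.0, 57.2, 31.4, 32.2 and 49.6, so that the highest value was in control-IP 2. At exon 20 (chr5:122456300-122457363) they were 33.9, 67.0, 84.1, 70.0 and 85.0, and control-IP 4 came close to miR-222-IP 2. Across these exons the miR-222-IPs did not stand apart from the control-IPs in a common direction.

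The 3′ ends of the Atp2a2 transcripts differed in their calls. The interval over exon 20 held the coding end and 3′UTR of the transcript of 1044 codons, which encodes the longer form, SERCA2b, and 963 bp of it belonged to that coding transcript alone. It had a peak in all 5 libraries. The last exon of the transcript of 998 codons, which encodes the muscle form SERCA2a, had an interval (chr5:122453607-122454342) with 698 bp in that transcript alone, and its peak was called in miR-222-IP 2 alone, with a score of 38.8. Among the other intervals, exon 5 had 25.9, 39.7, 36.9 and 89.2 in control-IP 2 and 4 and miR-222-IP 1 and 2. Exon 1 had 47.2, 22.4 and 39.2 in control-IP 2 and 4 and miR-222-IP 2, and exon 4 had 29.1, 26.2 and 56.5 in control-IP 4 and both miR-222-IPs. Exon 11 had 25.3 in control-IP 2 and 20.8 and 34.8 in the miR-222-IPs. Exons 3, 6 and 7 were called in miR-222-IP 2 alone, with 32.1, 32.3 and 25.5, and the interval over exon 3 also overlapped Gm43361 on the opposite strand.

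**Figure D4:**
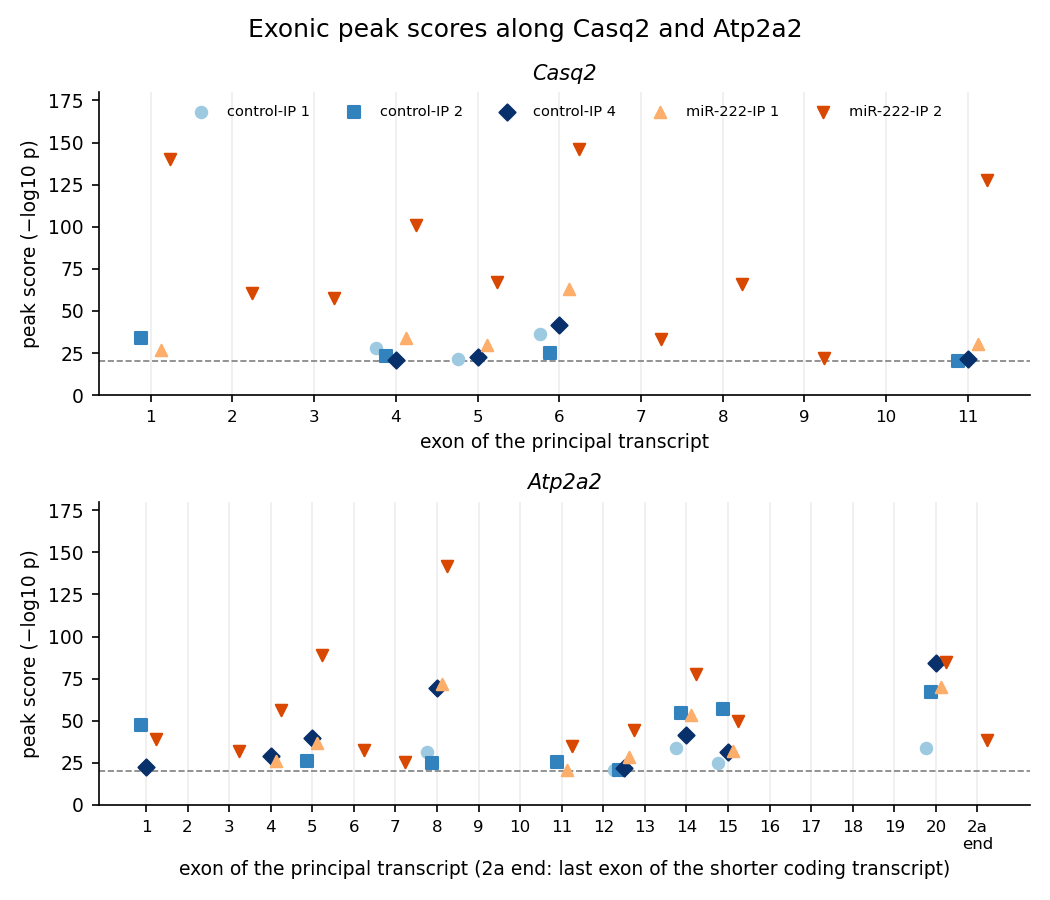
Peak score (−log10 p) of each interval of Casq2 (top) and Atp2a2 (bottom) by exon of the principal transcript, with 1 symbol per library and the threshold of 20 as a dashed line. In Casq2 miR-222-IP 2 reaches 146 while the control-IPs stay at 41.9 or below, with control-IP 2 above miR-222-IP 1 at exon 1. In Atp2a2 a control-IP is above a miR-222-IP at exons 1, 4, 5, 11, 14, 15 and 20.

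Stim1, the sensor of the calcium store, had 3 intervals. That over its last exon, exon 12, with coding sequence and 3′UTR (chr7:102435307-102437141), had scores of 20.1, 30.7 and 41.5 in control-IP 1, 2 and 4 and of 44.6 and 57.1 in miR-222-IP 1 and 2. The value of control-IP 1, just over the threshold, was the lowest of any peak over the 10 genes. The intervals over exons 6 and 10 were called in miR-222-IP 2 alone, with scores of 27.4 and 36.5. Itpr1, the inositol trisphosphate receptor that is abundant in brain, had no interval over its 62 exons, whereas Itpr2 of the pathway list had peaks in 4 of the 5 libraries and 35 intervals.

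The effect of miR-222 was then compared as a log2 ratio of scores, miR-222-IP over the mean of the control-IPs of the same experiment, after each library was divided by its median ratio over intervals with a peak in all 5. A positive value is a higher score with miR-222. For the 8 intervals that every one of the 5 libraries called, the mean of both experiments had a median of 0.22 (−0.28 to 0.93), beside 0.004 over the 7698 exonic intervals with a peak in all 5 (SD 0.37). Scaled by summed scores the median turned to −0.20 and that over all to −0.41, and the members stood 0.22 and 0.21 above all intervals under these scalings. A change of scaling shifts all intervals nearly alike, so this distance is no check on the result. Both miR-222-IPs were above every control-IP of their experiment in 2 of the 8, Casq2 exon 6 and Atp2a2 exon 8, beside 17.6% of those exonic intervals. Both were below in 0 of 8, beside 18%. With libraries scaled by their summed scores it was 0 above and 2 below (25.0% of 8 in either direction, beside 36.9% over all). An exact permutation test of the labels within experiments (two-sided, 6 arrangements, smallest possible p = 0.167) gave p = 0.333 for Casq2 exon 6 and Atp2a2 exon 8, whose mean log2 ratios were 0.93 and 0.70, and up to 0.667 for the others. After Benjamini-Hochberg adjustment over the 8 tests every p of this exact test was 0.667, and a design of this size cannot show a difference.

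In experiment 1 the 8 intervals had a median log2 ratio of 0.13, beside −0.04 over all, and 6 of 8 were positive, beside 46.8% over all. With libraries scaled by their summed scores the median was −0.07, beside −0.25 over all, and 4 of 8 were positive, beside 29.1%. In experiment 2, both narrow-peak libraries called 13 intervals, with a median of 0.43 beside 0.14 over all (SD 0.51, 16869 intervals), and 11 of 13 (84.6%) were positive, beside 61.3% over all. The 4 Casq2 intervals among them had a median of 1.45 (0.97 to 1.97), the 8 Atp2a2 intervals one of 0.34 (−0.58 to 0.58), and Stim1 exon 12 a value of −0.13. These ratios rest on control-IP 4 alone. Its scores at Casq2 exons 4, 5 and 11 were 20.8, 22.7 and 21.6, close to the threshold of 20, and 41.9 at exon 6. Scaling by summed scores moved the median over all in experiment 2 to −0.48, that of the 13 intervals to −0.19, and Casq2 to 0.83 (4 of 4 positive), Atp2a2 to −0.28 (0 of 8) and Stim1 to −0.75. The share of positive values was then 4 of 13 (30.8%), beside 16.9% over all. Relative to all intervals, Casq2 stood 1.31 higher, Atp2a2 0.20 higher and Stim1 at −0.28. In experiment 2 these distances are the same under each scaling by construction, since 1 miR-222-IP is set against 1 control-IP. They are therefore no check on the result. Casq2 in experiment 1 had ratios of 0.02 and 0.64 at exons 4 and 6. For scale, the log2 ratio of the control-IPs of experiment 1 to each other had an SD of 0.74 over 8135 intervals.

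**Figure D5:**
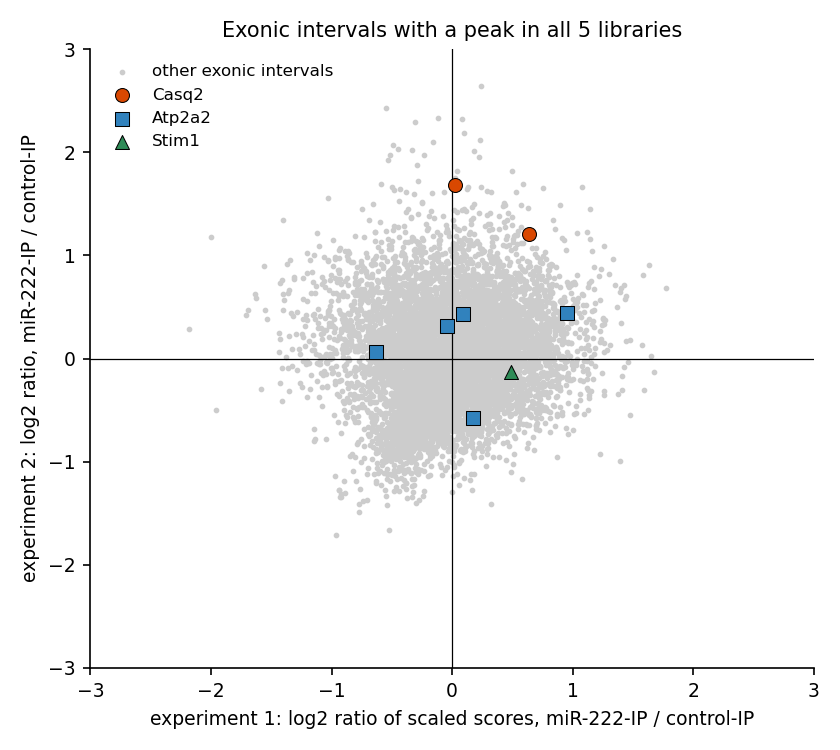
Log2 ratio of scaled scores, miR-222-IP over control-IP, in experiment 1 (horizontal) and experiment 2 (vertical) for exonic intervals with a peak in all 5 libraries, with other intervals in grey. The 2 Casq2 intervals lie high in experiment 2 (1.69 and 1.21) and Atp2a2 exon 8 lies high in experiment 1 (0.95). These, the other Atp2a2 intervals and the Stim1 interval all lie within the range of the grey points on both axes.

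In experiment 2 the markers of skeletal myocytes moved with Casq2. The unscaled highest scores of the 10 markers summed to 377, 328 and 325 in control-IP 1, 2 and 4 and to 497 and 1434 in miR-222-IP 1 and 2. Their 16 intervals with a peak in control-IP 4 and miR-222-IP 2 had a median log2 ratio of 0.95 (−0.33 to 2.11) in experiment 2, beside 0.14 over all. Scaled by summed scores this median was 0.33, beside −0.48 over all. In experiment 1 the 15 marker intervals with a peak in its 3 libraries had a median of 0.01 beside −0.04. The highest scores of the leukocyte markers Adgre1 and Ptprc summed to between 219 and 373 in the 3 control-IPs and to 322 in miR-222-IP 1 and 368 in miR-222-IP 2, and their 32 intervals had a median of −0.37 in experiment 2. The part of these differences between libraries in the values of Casq2, and in the calls of the other genes in miR-222-IP 2 alone, was not tested.

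Of 44 other genes of the pathway, 33 had an exonic peak, 16 of them in all 5 libraries and 12 in miR-222-IP 2 alone, beside 41% and 13.9% of the protein-coding genes with an interval, and 0 had peaks in both miR-222-IPs and in no control-IP. Their 191 intervals included 38 with a peak in all 5 libraries (19.9%, beside 19.8% of all exonic intervals) and 74 with a peak in miR-222-IP 2 alone (38.7%, beside 30.9%). The 5 with the highest median, over the libraries with a peak, of the highest score were Calm2 (213), which encodes calmodulin, Orai1 (190), the entry channel that STIM1 opens, Bin1 (187), which shapes the transverse tubule, Asph (125), whose locus also encodes junctin, and Hrc (117), a calcium-binding protein of the reticulum that was called in miR-222-IP 2 alone. The 11 without a peak were Ryr2, Stac3, Fkbp1b, Sln, Pln, Itpr3, Camk2b, Atp2b4, Slc8a3, Sypl2 and Trpc1. In experiment 2 the 76 pathway intervals with a peak in control-IP 4 and miR-222-IP 2 had a median log2 ratio of 0.12, and in experiment 1 the 44 with a peak in its 3 libraries had one of −0.07, beside 0.14 and −0.04 over all.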

How the data were processed

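RISC-IP RNA of MSC myocytes was sequenced in 6 libraries. Per the paper's methods, SOAPSplice aligned the reads to mm10, macs2 was run with its defaults, and the authors kept peaks over 20. The submitters' processing notes name bedtools, MACS2 and mm10. The version of macs2 and the control it used are not given in the sources used here. The deposited files give, for each peak, its coordinates and its −log10 p, and no read counts. The p-values behind the −log10 values are those of the authors' peak caller.

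Groups and experiments were taken from the sample labels. Nothing in the labels says that libraries of 1 experiment came from separate cultures, so their spread may be technical. The study's model (condition and experiment) needs counts and was not fitted. Peaks of the 5 narrow-peak libraries were merged where they overlapped or touched, and each library's highest score was kept. Exons and transcript parts came from GENCODE M21 on GRCm38, and sequences from GRCm38.p6. The exons of a gene are those of all its annotated transcripts, and exon numbers refer to 1 transcript per gene, the longest coding one among those tagged APPRIS principal. Scores were scaled by the median of ratios. Labels were permuted within experiments by an exact two-sided test for single intervals. Pathway genes named are those without a peak, the 5 with the highest median score, and any with peaks in both miR-222-IPs and no control-IP. All 10 genes are named. Casq1, Jph1 and Itpr2 were named after their values were seen, as counterparts of Casq2, Jph2 and Itpr1, as was the Stim1 seed match near an interval. The genes, the lists and the tests were chosen with earlier results of these data known. Of the marker lists, that for skeletal myocytes had 8 of 10 genes with a peak in all 5 libraries, satellite cells 0 of 2, fibroblasts 0 of 3, endothelium 1 of 2, leukocytes 1 of 2 and cardiac muscle 0 of 3. Python 3.11.15, numpy 2.4.6, pandas 2.3.3, pysam 0.24.0, samtools 1.23.1 and matplotlib 3.10.9 were used. Merging, scaling, ratios, the comparison with every control-IP and the seed search were tested on simulated data. The exact test and the Benjamini-Hochberg adjustment were not. Other settings tried were a stricter threshold, wider merging, a larger overlap, 1 transcript per gene, other scalings, control-IP 3 added, a fixed value for missing peaks, a 6-mer and leaving out each library. The ratio with equal numbers of peaks was added after the data were seen.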

Additional observations from a re-analysis of the deposited data

Results flagged for a closer look

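The median peak width of control-IP 3, 32103 bp, lay far from those of the other 3 control-IPs. Its gap to the nearest of them was 0.998 of their whole range, and chance flags about 1 in 20 groups of 4 samples this way.

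In 2 intervals, with scores scaled by the median of ratios, the miR-222-IPs moved in opposite directions against every control-IP of their experiment. This difference was not tested, and how many of all exonic intervals show it was not counted. Atp2a2 exon 15 had a log2 ratio of −0.63 in experiment 1 and 0.07 in experiment 2, and Stim1 exon 12 had 0.49 and −0.13. Both experiment 2 values rest on 1 control-IP. The directions depend on the scaling. Without scaling, Stim1 exon 12 had 0.81 in experiment 1 and 0.46 in experiment 2. Scaled by summed scores, 0 of 8 Atp2a2 values in experiment 2 were positive.

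Control-IP 3, which was not used in the comparisons, had peaks over Cacna1s and Trdn, where the other 3 control-IPs had none. The scores were 85.0 over Cacna1s, in a peak of 125074 bp, and 66.5, 104, 100.05, 34.0 and 21.3 over Trdn. The peaks over Trdn exons 1 and 2 were 583 and 427 bp wide, close to the widths in the other libraries, and that over exons 5 to 10 was 58384 bp wide.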

How the results depend on the processing

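Of 57 values recomputed under an alternative for 6 results, 34 kept their direction and stayed close to the value reported, 20 moved and 3 had the opposite sign, 1 of these from an interval that is not among those reported. The depth of the libraries is unknown, peaks under the threshold were not used here, and with 1 miR-222-IP per experiment no value within an experiment has a replicate check.

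The 42 intervals became 17 at a threshold of 50, 19 where at least 50% of the interval had to be exonic, and 15 with equal numbers of peaks. Leaving out 1 library gave 16 to 42, and 16 came without miR-222-IP 2. The 8 intervals that every library called became 0 at a threshold of 50 (15.2% over all exonic intervals) and 2 with equal numbers of peaks (13.3% of 15, beside 28.7%), and 8 to 10 with 1 library left out. Without miR-222-IP 2 they were 8 of 16, beside 28.5% over all, so that the share was then above that over all. With another library left out they were 19.0% to 23.8% of 42, each below the share over all (20.0% to 28.4%). Fewer libraries make a call in every library easier to meet, so this count could hardly fall. With control-IP 3 added, whose list does not cover the chromosomes of Casq2, Atp2a2 and Stim1, none of the 8 could be called in every library. The 1 interval then called in all was another, of 125117 bp, which joined Cacna1s and Kif21b. The 26 with a peak in miR-222-IP 2 alone became 12 at a threshold of 50 (70.6% of 17, beside 40.3% over all), 9 where 50% had to be exonic (47.4% of 19, beside 29.1%) and 4 with equal numbers (26.7% of 15, beside 5.78%). With another library left out they were 26 to 27 (61.9% to 64.3% of 42, beside 31.2% to 39.4%). Leaving out another library cannot lower this count, so that range is no check on it.

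The median log2 ratio of 0.22 changed sign to −0.20 with scaling by summed scores, beside −0.41 over all, and to −0.082 where a library without a peak was given 20. In that last case the median over all was −0.14. With control-IP 3 added, the joined interval over Cacna1s and Kif21b, which is not among the 8, had a ratio of −0.29. It was 0.69 without scaling, beside 0.47 over all, and 0.014 with equal numbers of peaks, from 2 intervals. With 1 library left out it was 0.13 to 0.42, the highest without control-IP 1. It was 0.23 without the replicate block for the experiment. The 2 intervals beyond every control-IP (25.0% of 8, beside 35.5% over all in either direction) became 1 of 6 where 50% had to be exonic (beside 35.1%), 6 of 8 without scaling (beside 53.0%), 1 of 8 without the replicate block (beside 23.8%), 0 of 2 with equal numbers (beside 33.5%), and 3 to 7 with 1 control-IP left out. It was 7 of 10 without control-IP 1, beside 49.5%, and 3 of 9 without control-IP 2, beside 58.5%. For the joined interval with control-IP 3 it was 0. The intervals with a miR-222 match went from 0 to 1 with the 6-mer. The causes were not tested. No value could be given for ratios without control-IP 4, which left experiment 2 without a narrow-peak control-IP, for the 2 intervals with 1 miR-222-IP left out, for calls of miR-222-IP 2 alone without that library, or for ratios at a threshold of 50, where no interval had a peak in all 5.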
